A study of Mus musculus with 26 samples.

Results

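The E2F transcription factors were followed in 4T1 cells with and without the long noncoding RNA MaTAR25, taking as members the 8 genes E2f1 to E2f8 by symbol out of the 45318 genes of each count table. All 8 were present and all 8 passed the filter on low counts, so no member dropped out. 4T1 is a mammary carcinoma cell line from a BALB/c mouse, and the RNA-seq libraries were made from polyadenylated RNA of cells cultured in DMEM with serum. They fall into 2 control libraries, labelled wild type and described in the study as cells given a guide RNA against Renilla luciferase, and libraries of MaTAR25 knockout cells, 3 of clone KO1 and 4 of clone KO2. Each knockout line came from 1 sorted cell in which CRISPR/Cas9 had removed a stretch over the MaTAR25 transcription start. The study grew control lines from sorted single cells too, and the labels do not say which gave the control libraries. A difference between a clone and the control thus cannot be told apart from a property of that clone or of the control cells. A change shared by both clones likewise cannot be told apart from a property of the control cells. Both clones were compared with the same 2 controls, and the labels do not say that replicates were separate cultures, so p-values measure only the spread between these libraries.

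E2F proteins bind promoters of genes for DNA replication and cell cycle progression. E2F1, E2F2 and E2F3 are classed as activators and are held in check by the retinoblastoma protein until cyclin-dependent kinases phosphorylate it. E2F4 and E2F5 repress mainly together with the related pocket proteins p107 and p130, E2F6 represses without pocket proteins through Polycomb-type complexes, and the atypical E2F7 and E2F8 repress without a DP dimer partner and are themselves targets of the activators. In mammary carcinoma cells, as in other dividing cells, these genes are read as part of the machinery that starts S phase.

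The libraries held 25367211 to 61110585 counts in genes, and levels are given as CPM, TMM-scaled gene counts set to a common library total. The targeted gene (1200007C13Rik in the tables) was read 35 and 30 times in the 2 controls, 2, 7 and 0 in KO1 and 11, 1, 9 and 6 in KO2, lower in every knockout library. Its edgeR log2 fold change was -2.63 with an adjusted p of 0.0561. The 4 epithelial markers (Epcam, Krt8, Krt18, Cdh1) summed to 2807 to 2964 CPM in control, 2330.0 to 3838 in KO1 and 1409 to 2859 in KO2. Among them Cdh1 was lower in knockout cells, at 542 CPM against 849.5 in control (log2 fold change -0.65, edgeR adjusted p = 0.0684), Krt8 was higher in KO1, at 1075 against 432 CPM (1.32, edgeR adjusted p = 0.0232), and Epcam was lowest, at 103.6 CPM, in KO2 replicate 2. The 4 fibroblast markers reached at most 47.0 CPM in sum with Dcn and Lum at 0 throughout, and the 5 immune markers reached at most 9.54 CPM with Adgre1 at 0. The 3 endothelial markers summed to 0.0659 to 0.214 CPM in control, 0.0956 to 0.189 in KO1 and 0.294 to 1.56 in KO2, where Cdh5 was called higher at 4 to 33 counts a library. The 3 adipocyte markers summed to 0.0439 to 0.0915 CPM in control, 0.133 to 0.223 in KO1 and 0.245 to 0.800 in KO2, and Fabp4, at 0 counts in both controls and 4 to 18 in each knockout library, was called higher. The part of these marker differences in the results for the E2F genes was not tested.

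The promoter windows of the members that rose are shown first, since E2f7 and E2f8 moved together and E2F family genes are known to be read by E2F proteins themselves. Windows of 300 bases, from 250 before to 50 after a RefSeq transcript start, were found on build GRCm38.p6 for 6 of the 8 members, while E2f4 and E2f5 had no entry. Capitals mark exact matches, on either strand, to 4 E2F words (TTTCCCGC, TTTCGCGC, TTTGCCGC, TTTGGCGC), to the cell cycle homology region word TTTGAA, which the MuvB complex reads, and to CCAAT, the NF-Y word. None of these words overlaps another in the sequences printed. The E2f7 window lies at chr10:110745189-110745488 on the plus strand and the E2f8 window at chr7:48881547-48881846 on the minus strand, each written 5′ to 3′ along its gene.
E2f7: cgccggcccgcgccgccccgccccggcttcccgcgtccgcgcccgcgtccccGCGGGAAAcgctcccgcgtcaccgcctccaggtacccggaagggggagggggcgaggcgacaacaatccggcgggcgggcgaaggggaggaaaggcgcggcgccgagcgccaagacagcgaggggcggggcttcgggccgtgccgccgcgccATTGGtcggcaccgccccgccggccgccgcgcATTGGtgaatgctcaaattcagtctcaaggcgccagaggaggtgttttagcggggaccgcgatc
E2f8: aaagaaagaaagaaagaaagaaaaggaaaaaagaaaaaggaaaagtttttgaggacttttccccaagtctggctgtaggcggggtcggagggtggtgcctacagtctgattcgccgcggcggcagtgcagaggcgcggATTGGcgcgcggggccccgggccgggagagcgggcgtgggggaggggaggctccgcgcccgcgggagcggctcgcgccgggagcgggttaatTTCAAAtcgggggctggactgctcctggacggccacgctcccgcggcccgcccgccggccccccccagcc
E2f7 held the E2F word TTTCCCGC on the opposite strand, beginning 198 bases before the start, and CCAAT on the opposite strand 46 and 14 bases before it. E2f8 held no E2F word of the 4, but TTTGAA on the opposite strand 20 bases before the start and CCAAT on the opposite strand 112 bases before it. Over all 32851 windows of the same length, 2.26% held an E2F word, 17.9% TTTGAA and 37.4% CCAAT. E2f1 had a window for the RefSeq start at 154569426 on chromosome 2, which lies 466 bases inside the gene as GENCODE draws it, and no word was found in that window.

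E2F words were also present in members that did not rise with them. Stretches of 80 bases from E2f2 (chr4:136172244-136172323, plus strand) and E2f3 (chr13:29986031-29986110, minus strand) are given for comparison.
E2f2: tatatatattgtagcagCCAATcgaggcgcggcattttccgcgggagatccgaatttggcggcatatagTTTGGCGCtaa
E2f3: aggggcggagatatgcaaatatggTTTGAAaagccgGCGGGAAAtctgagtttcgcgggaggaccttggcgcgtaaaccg
In E2f2 the word TTTGGCGC began at base 40 after the start, and in E2f3 TTTCCCGC lay on the opposite strand 11 bases before it, with TTTGAA at 23 bases before it. The E2f2 start used lies 120 bases from the GENCODE gene start. E2f2 and E2f3 each had a further window without an E2F word, at starts 8388 and 1672 bases from the GENCODE gene start. The E2f6 window held none of the words. A match is a match of letters only, and a word that differs by 1 base was not searched for.

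Of the 8 members, 3 rose in knockout against control cells and none fell at an adjusted p under 0.1 in edgeR's quasi-likelihood test. These were the activator E2f1 and the atypical repressors E2f7 and E2f8. In the same test 22.6% of the 15023 genes tested were called, 11.9% higher and 10.7% lower. The same 3 members were those whose 7 knockout libraries all lay above both controls, and 34.4% of all genes tested had no overlap between the groups in either direction. In bulk RNA, more transcript per cell and more cells in the phase that uses the gene cannot be told apart.

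**Figure D1:**
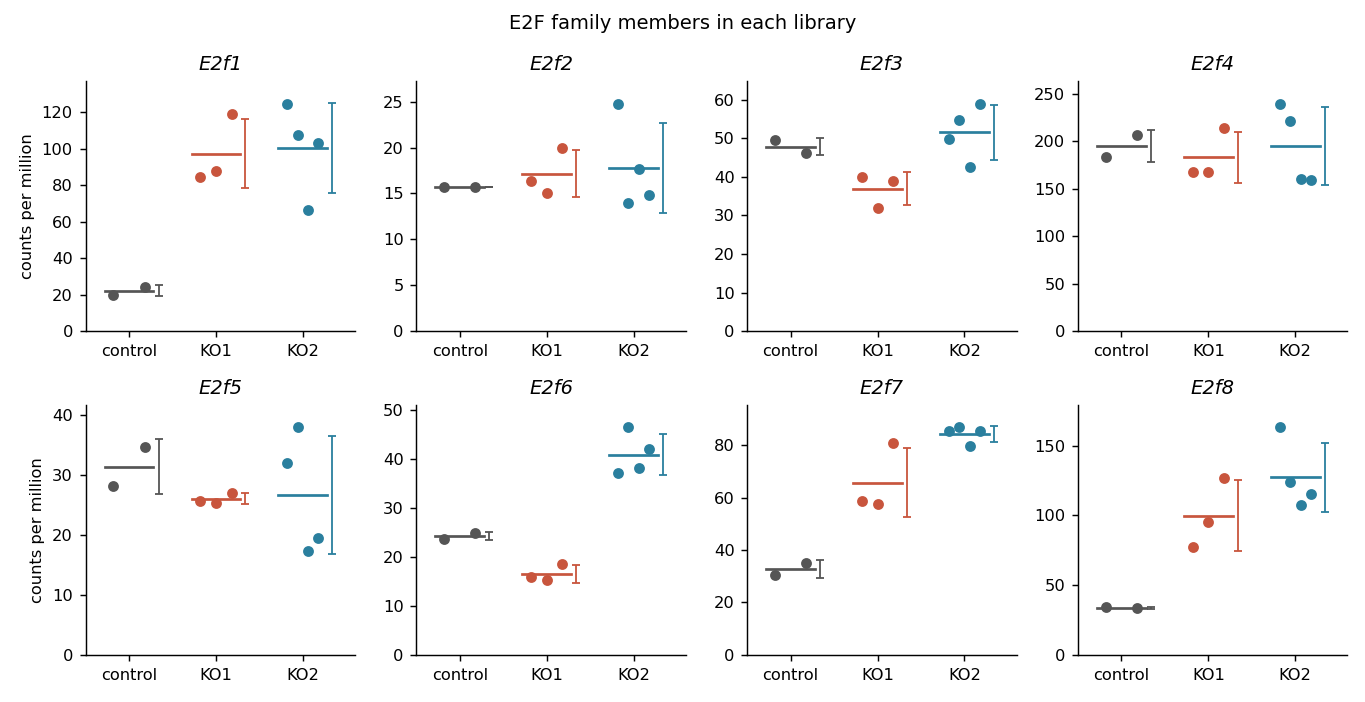
CPM of each E2F gene (y axes, each from 0) in the 2 control, 3 KO1 and 4 KO2 libraries; points are libraries, horizontal bars group means and vertical bars ± SD. E2f1, E2f7 and E2f8 of every knockout library sit above both controls, and E2f6 sits below them in KO1 and above them in KO2.

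E2f1, the activator best known for driving entry into S phase, changed most. It was read at 20.0 and 24.3 CPM in the controls, at 84.7, 87.8 and 118.8 in KO1 and at 124.6, 107.4, 66.4 and 102.9 in KO2. Every knockout library was above both controls, and the lowest of them was KO2 replicate 3. The log2 fold change in edgeR was 2.16 ± 0.27 (SE), a fold of 4.48, with an adjusted p of 0.00175. An exact permutation test, two-sided, over the 36 ways to pick 2 of 9 libraries gave p = 0.0278, the smallest that design allows. By clone the log2 fold changes were 2.14 ± 0.29 in KO1 and 2.18 ± 0.28 in KO2. Their difference was 0.05 ± 0.22, with an adjusted p of 0.909 in edgeR. E2f1 lies on chromosome 2 at 154559407-154569892 of GRCm38, on the minus strand, 13.3 Mb from MaTAR25 on the same chromosome.

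The other activators did not pass the test in knockout against control cells. E2f2, which shares the activator domain structure of E2F1, was at 15.7 CPM in both controls, at 16.4, 15.0 and 20.0 in KO1 and at 24.8, 13.9, 17.7 and 14.9 in KO2. Its knockout libraries lay on both sides of the controls, and the edgeR log2 fold change was 0.16 ± 0.25 with an adjusted p of 0.701. E2f3, whose locus makes a longer activating and a shorter isoform that gene counts do not separate, was at 49.5 and 46.2 CPM in control, 40.0, 31.9 and 38.8 in KO1 and 49.8, 54.7, 42.5 and 58.9 in KO2. The 3 KO1 libraries were below both controls and the KO2 libraries lay on both sides of them. In edgeR the log2 fold change of E2f3 was -0.08 ± 0.23 over both clones (adjusted p = 0.843), -0.37 ± 0.18 (adjusted p = 0.173) for KO1 alone and 0.11 ± 0.18 (adjusted p = 0.695) for KO2 alone. The clones differed from each other by 0.48 ± 0.16 (edgeR, adjusted p = 0.0780), a call that was lost when any library other than KO2 replicate 3 was left out, with an adjusted p of 0.277 at the highest.

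E2f4 and E2f5, the pocket-protein-bound repressors, did not pass the test in any comparison. E2f4, the most abundant member per length, was at 183 and 207 CPM in the controls, 168, 168 and 214 in KO1 and 239.5, 221, 160.1 and 159 in KO2. The groups overlapped fully, and its log2 fold change was -0.04 ± 0.19 with an adjusted p of 0.912 in edgeR. E2f5 was at 28.1 and 34.6 CPM in control, 25.7, 25.3 and 27.1 in KO1 and 31.9, 37.9, 17.3 and 19.5 in KO2. KO2 held both the highest and the lowest E2f5 value of the series, so its libraries spread over 2.19-fold, and the log2 fold change over both clones was -0.25 ± 0.27 (edgeR, adjusted p = 0.576).

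E2f6, the repressor that acts with Polycomb-type complexes, moved in opposite directions in the 2 clones. It was at 23.7 and 24.9 CPM in the controls, at 15.9, 15.2 and 18.6 in KO1 and at 37.1, 46.5, 38.1 and 42.0 in KO2. No library of one group reached into the range of another. Against control, E2f6 in KO1 had a log2 fold change of -0.56 ± 0.18 with an adjusted p of 0.0513 in edgeR. In KO2 it was 0.75 ± 0.18, with an adjusted p of 0.0163 in edgeR. The difference between the clones was 1.31 ± 0.16, a fold of 2.47, with an adjusted p of 0.00310 in edgeR. Averaged over both clones the change was 0.32 ± 0.45 (adjusted p = 0.665), a value that describes neither clone. The KO1 call was lost without either control or without KO1 replicate 1 or 2, with edgeR adjusted p from 0.124 to 0.261, with no filter on low counts, with a replicate block and at a threshold of 0.05. The KO2 call was lost without either control, with edgeR adjusted p of 0.127 and 0.152. The clones themselves differed in E2f6 under every setting run.

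The atypical repressors E2f7 and E2f8, which limit E2F1-driven transcription in late S and G2 phase, rose together. E2f7 was at 30.4 and 35.1 CPM in the controls, at 58.6, 57.5 and 80.9 in KO1 and at 85.6, 86.8, 79.6 and 85.2 in KO2. All 7 knockout libraries were above both controls, and 3 of the 4 KO2 libraries were above all KO1 libraries. Its log2 fold change was 1.22 ± 0.22, a fold of 2.33, with an adjusted p of 0.00649 in edgeR, and without control replicate 1 the value was 1.13 and the adjusted p 0.119. E2f8 was at 34.1 and 33.3 CPM in the controls, at 77.4, 95.4 and 127.1 in KO1 and at 163, 124, 107.4 and 115 in KO2. Its log2 fold change was 1.78 ± 0.27, a fold of 3.43, with an adjusted p of 0.00362 in edgeR. The exact permutation p was 0.0278 for both genes, again the smallest possible. The clones differed by 0.36 ± 0.15 for E2f7 (adjusted p = 0.153) and by 0.35 ± 0.20 for E2f8 (adjusted p = 0.276), both in edgeR. Without KO1 replicate 3 the clone difference of E2f7 was 0.54, with an edgeR adjusted p of 0.0709.

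The library kit did not mark strand, and the strand setting of the counting is not stated. Reads over bases shared with a gene on the opposite strand could be counted with a member or set aside as ambiguous. Ambiguous reads made up 2.28% to 2.38% of all counts in a library. E2f8 shares 610 bases, 11.2% of its exon length, with Gm2788, which was at 0.351 to 0.519 CPM in the controls and at 0.717 to 2.76 in the knockouts. E2f7 shares 86 bases with 1700020G17Rik, which stayed at or below 0.204 CPM. E2f5 shares 26 bases with 1810022K09Rik, at 11.0 to 19.4 CPM over the 9 libraries.

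By clone, 4 members passed the test in KO1 (E2f1, E2f7 and E2f8 higher, E2f6 lower), where 31.6% of all genes tested were called. In KO2 4 members passed, all higher (E2f1, E2f6, E2f7 and E2f8), where 31.4% of all genes were called. Between the clones E2f3 and E2f6 passed, both higher in KO2, against 19.6% of all genes.

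**Figure D2:**
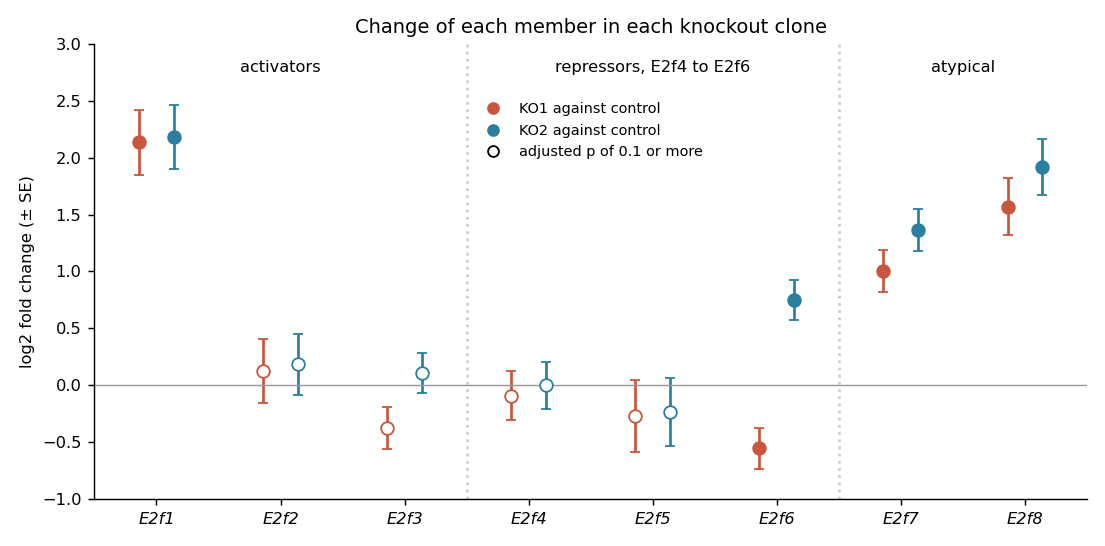
Log2 fold change of each E2F gene in KO1 and in KO2 against the 2 control libraries they share (edgeR, points with ± SE); filled points have an adjusted p under 0.1. E2f1, E2f7 and E2f8 are above 0 in both clones, and E2f6 is at -0.56 in KO1 and 0.75 in KO2.

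Levels of single members were compared with each other per length, as reads per kilobase of merged exons, on the CPM scale (RPKM). In control cells the mean RPKM fell from E2f4 at 79.6 through E2f5 at 17.6, E2f3 at 8.81, E2f1 at 7.01, E2f8 at 6.19, E2f6 at 4.30 and E2f7 at 3.64 to E2f2 at 3.22. The ranges of neighbours in this order did not overlap, although each rests on 2 libraries. In knockout cells E2f4 at 77.5 was still first, followed by E2f1 at 31.4, E2f8 at 21.3, E2f5 at 14.8, E2f7 at 8.47, E2f3 at 8.34, E2f6 at 5.38 and E2f2 at 3.59. There the ranges of E2f1 (21.1 to 39.5) and E2f8 (14.2 to 30.0) overlapped, as did those of E2f8 and E2f5 (9.72 to 21.3), of E2f7 and E2f3 (5.88 to 10.9), of E2f3 and E2f6 (2.69 to 8.20) and of E2f6 and E2f2 (2.86 to 5.07). The last place differed by clone, since E2f6 had a mean RPKM of 2.92 in KO1, below E2f2 at 3.51, and of 7.23 in KO2, above E2f2 at 3.65. E2f1 was above 56.6% of the tested genes with a length in control and above 87.9% of them in knockout cells.

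The summed RPKM of the family was 130.4 ± 10.4 (SD, n = 2) in control and 171 ± 29.7 (SD, n = 7) in knockout cells, ranges that did not overlap. E2f4 made up 61.1% ± 0.378 of it in control and 45.4% ± 2.35 in knockout cells. E2f1 alone made up 5.14% and 5.58% in the controls and 14.8% to 20.3% in the knockout libraries. The 3 activators together rose from 14.6% ± 0.743 to 25.4% ± 2.02, and E2f7 with E2f8 from 7.56% ± 0.397 to 17.4% ± 1.91. These shares are descriptions and follow from the changes of single members given above.

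**Figure D3:**
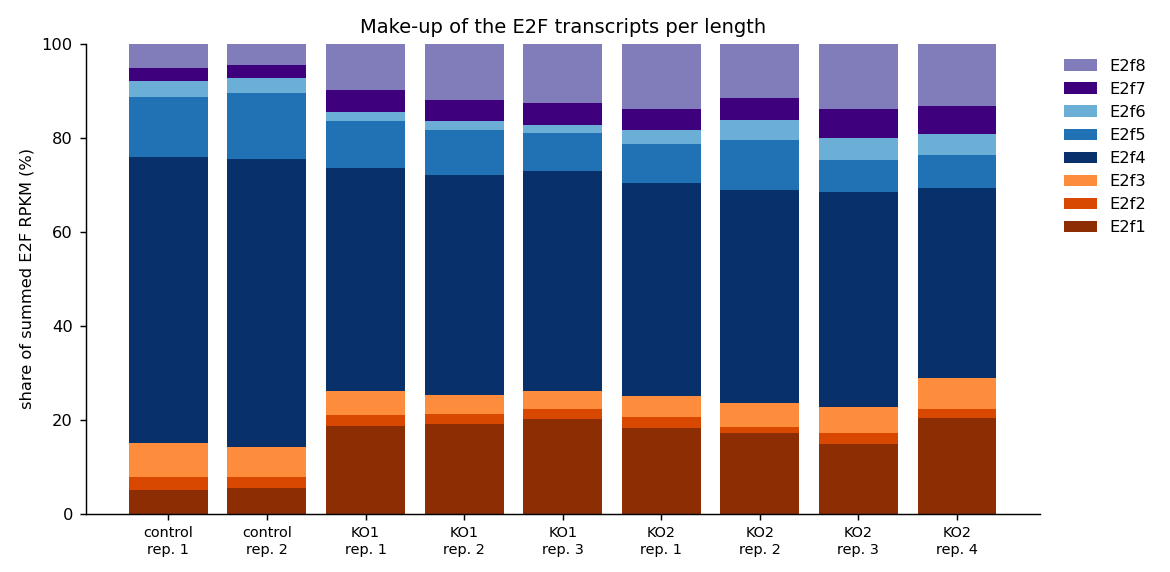
Share (%) of the summed E2F RPKM held by each member in each of the 9 libraries, stacked from E2f1 at the bottom to E2f8 at the top. E2f4 falls from about 61.1% in the controls to a mean of 45.4% in the knockouts, while E2f1, E2f7 and E2f8 take larger shares.

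Activators were set against repressors as the mean log2(CPM + 1) of E2f1 to E2f3 minus that of E2f4 to E2f8. Gene length was not taken into account in it, so only its change between libraries is read. This difference was -0.72 and -0.80 in the controls, -0.38, -0.55 and -0.50 in KO1 and -0.62, -0.93, -0.74 and -0.55 in KO2. KO1 lay above both controls and KO2 on both sides of them, so over the 7 knockout libraries the mean of -0.61 ± 0.18 (SD) differed from the control mean of -0.76 by less than 1 SD. The outcome depended on which members were set against each other. Against E2f7 and E2f8 alone the difference was -0.35 and -0.38 in the controls, -0.80, -1.06 and -1.14 in KO1 and -1.12, -1.22, -1.30 and -1.12 in KO2, lower in every knockout library. The mean level of the activators was itself higher, at 4.73 in control, 5.34 in KO1 and 5.51 in KO2. This is the rise of E2f1 averaged with the other 2. E2f1 alone had an edgeR log2 fold change of 2.16 ± 0.27 over both clones, against 1.22 ± 0.22 for E2f7 and 1.78 ± 0.27 for E2f8. The lower difference against E2f7 and E2f8 thus rests on averaging E2f1 with E2f2 (0.16) and E2f3 (-0.08). The mean level of E2f7 and E2f8 was 5.10 in control, 6.33 in KO1 and 6.70 in KO2, and that of E2f4 to E2f6 was 5.76, 5.47 and 5.90.

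**Figure D4:**
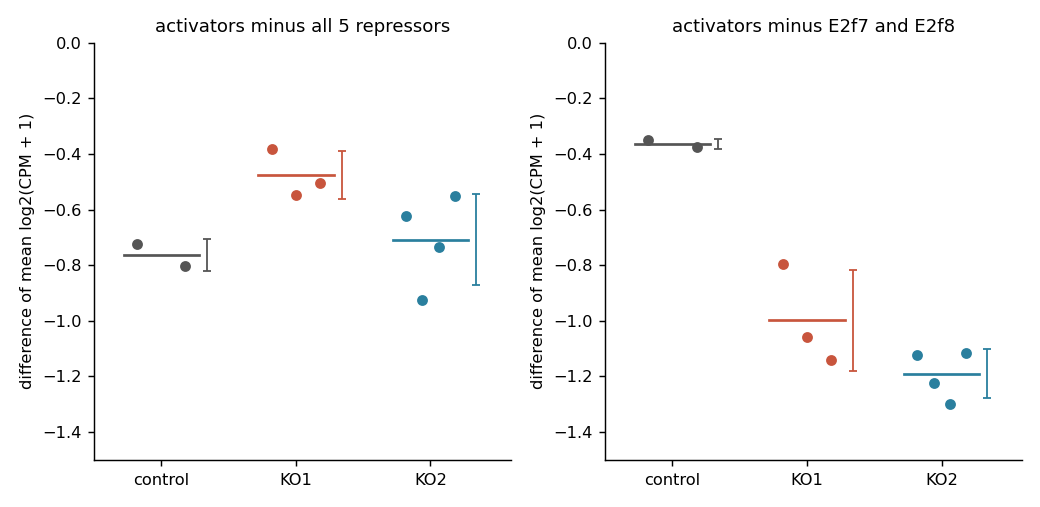
Mean log2(CPM + 1) of E2f1 to E2f3 minus that of E2f4 to E2f8 (left) or of E2f7 and E2f8 (right) in each library; points are libraries, horizontal bars group means, vertical bars ± SD. On the left the KO2 libraries span the controls, and on the right every knockout library, at -0.80 or lower, is below both controls.

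The transcripts of the proteins that E2Fs need, or are held by, did not move as one group. The DP partners, which dimerise with E2F1 to E2F6, went apart. Tfdp1 rose from 139 CPM in control to 213 in knockout cells (log2 fold change 0.62, edgeR adjusted p = 0.0781), and Tfdp2 fell from 46.0 to 25.3 (-0.86, edgeR adjusted p = 0.0543). In KO1 alone neither was called, with Tfdp1 at 178 CPM and Tfdp2 at 27.0. In KO2 Tfdp1 was called higher, at 239 CPM, and Tfdp2 lower, at 24.0. Tfdp1 was also called higher in KO2 than in KO1. None of the 3 pocket proteins passed the test over both clones, with log2 fold changes of -0.33 for Rb1, -0.05 for Rbl1 (p107) and 0.60 for Rbl2 (p130). When KO2 replicate 1 was left out, Rbl2 was called higher. Over all genes tested 22.6% were called over both clones, 31.6% in KO1, 31.4% in KO2 and 19.6% between the clones. By clone, Rb1 was at 10.2 CPM in KO1 against 19.7 in control (log2 fold change -0.94, edgeR adjusted p = 0.0698), and at 19.7 in KO2. Rbl1 was lower in KO2, at 61.0 against 80.6 CPM (-0.40, edgeR adjusted p = 0.0764). In KO1 it was at 95.6 to 104.8 CPM, above both controls but not called (0.31, edgeR adjusted p = 0.176), and the clones differed by -0.71 (KO2 against KO1, edgeR adjusted p = 0.0128). Neither DP gene was called without control replicate 1 or without control replicate 2, and the Tfdp1 call was also lost without KO1 replicate 3 or any of KO2 replicates 1, 3 and 4.

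Of 7 genes of MuvB and its partners, which switch between repression with p130 and activation with B-MYB and FOXM1, 2 rose and none fell, where 22.6% of all genes tested were called. These were Mybl2, encoding B-MYB, at 28.4 CPM in control and 94.6 in knockout cells (log2 fold change 1.74), and Foxm1 at 122 and 244 CPM (1.00). Among the core subunits Rbbp4, at 0.17, and Lin54, at 0.21, did not pass the test. In KO1 3 of the 7 were higher and 1 lower, where 31.6% of all genes tested were called. This added Lin9 (0.58) and Lin52 (-0.69), 2 MuvB core subunits named after their values were seen. In KO2 2 were higher, 28.6% of the list beside 31.4% of all genes tested.

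Of 10 genes for the E2F6 repressor complex none rose and 2 fell, 20.0% of the list beside 22.6% of all genes tested. These were Rybp (-0.90) and Rnf2 (-0.64), both Polycomb complex subunits, while Mga (0.55) and Wdr5 (-0.16) did not pass. Rybp was lower in KO1, at 13.5 CPM, and in KO2, at 14.3 CPM, than in control, at 25.9 CPM, and Rnf2 had a log2 fold change of -0.58 in KO2 against KO1 (edgeR adjusted p = 0.0203). By clone the list went different ways, and the genes that follow complete the counts and were named after their values were seen. In KO1 4 of the 10 were higher, L3mbtl2 (1.17), Mga (0.70), Cbx3 (0.61) and Yaf2 (0.54), and Rybp was lower, beside the 31.6% of all genes called there. The edgeR adjusted p of the 4 ran from 0.0541 to 0.0967. In KO2 none was higher and 3 were lower, Rnf2 (-0.92), Rybp (-0.86) and Ring1 (-0.73), beside 31.4%. Between the clones Wdr5 (0.40) was higher in KO2 and Ring1 (-0.70), Yaf2 (-0.61) and Rnf2 (-0.58) were lower, beside 19.6%. Over both clones Mga was also called higher without KO2 replicate 2, Cbx3 without KO2 replicate 3 or 4 and L3mbtl2 without KO2 replicate 4. Of the MuvB and E2F6 lists only Mybl2 was still called when either control was left out, and the Rnf2 call was also lost without KO2 replicate 1, 3 or 4.

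Upstream of the pocket proteins, 5 of 8 G1 cyclins and kinases rose and none fell, where 11.9% of all genes tested were called higher. Cyclin E1 (Ccne1), an E2F target and CDK2 partner, rose from 4.68 to 26.6 CPM (log2 fold change 2.50), cyclin D1 (Ccnd1), the CDK4 and CDK6 partner, from 446 to 1792 (2.01) and cyclin E2 (Ccne2) from 6.53 to 24.5 (1.91). Cdk6 (-0.30) and Ccnd2 (-0.28) did not pass. The other members called, named here because they complete the count and chosen after their values were seen, were Cdk2 (1.12) and Cdk4 (0.70). Without control replicate 1 Ccne1 alone was called, and without control replicate 2 Ccne1 and Cdk2.

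Of the 7 CDK inhibitors, 5 passed the filter, and 2 of them rose and 2 fell, where 22.6% of all genes tested were called. In KO1 only Cdkn2c was called higher and only Cdkn1b lower, and in KO2 2 were higher and 2 lower. Cdkn2d (p19) rose from 23.8 to 46.2 CPM (log2 fold change 0.96), and Cdkn2c (p18), which completes the count, from 88.0 to 143 (0.70). Cdkn1b (p27) fell from 192 to 118 CPM (-0.70). Cdkn1c (p57) had 12 and 9 counts in control, 3, 1 and 2 in KO1 and 0, 3, 0 and 0 in KO2, so its fall rests on a few reads. Cdkn1a (p21) was at 25.5 CPM in control and ran from 2.44 to 57.0 in the knockouts, with no call. Cdkn2a and Cdkn2b had 0 counts in all 9 libraries, where a count of 0 allows up to 3 counts per library. No CDK inhibitor was called when either control was left out.

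Over all genes tested, 11.9% were called higher over both clones, and 31.6% in KO1 and 31.4% in KO2 were called in either direction. The genes for E2F turnover all rose, by log2 fold changes of 1.38 for Skp2 and 1.30 for Ccnf, F-box subunits of SCF ubiquitin ligases, and 0.57 for Fzr1, an activator of the anaphase-promoting complex. All 3 were also called in each clone, and without either control Skp2 alone was.

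The known S phase targets of E2F, where called, all moved upward. Of 35 genes for DNA replication, nucleotide supply, DNA repair, chromatin and cell cycle control, 31 rose and none fell in knockout against control cells, where 11.9% of all genes tested were called higher. Their median log2 fold change was 1.40, against 0.06 over all genes tested. Cdc6, which loads the MCM helicase, rose from 11.4 to 78.4 CPM (2.79), Ung, the uracil DNA glycosylase, from 7.38 to 44.1 (2.58) and Mcm4, a helicase subunit, from 64.2 to 323 (2.33). Cdt1 (0.48) and Ezh2 (-0.04) did not pass. Without control replicate 1 the number that rose was 16. In KO1 33 of the 35 rose and in KO2 31, with medians of 1.45 and 1.31. Of the 15023 genes tested, 2390 were called higher in KO1 and 2478 in KO2. Between the clones 7 of the 35 were lower in KO2 than in KO1, where 1417 of the 15023 genes tested were called lower.

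Of 8 apoptosis targets of E2F1, 6 passed the filter, none was called higher and 1 was called lower, with a median log2 fold change of -0.34. Over all genes tested 11.9% were called higher and 10.7% lower. By clone none was higher and 1 lower in KO1, where 31.6% of all genes tested were called in either direction. In KO2 1 was higher and 2 lower, where 31.4% of all genes tested were called. Bbc3, encoding the BH3-only protein PUMA, fell from 44.9 to 10.3 CPM (-2.12, edgeR adjusted p = 0.00432). It was at 39.4 and 50.4 CPM in the controls and between 6.36 and 19.5 in the 7 knockout libraries, with no overlap, and was called whichever library was left out. Casp8 (-0.47) did not pass over both clones. Trp73 and Pmaip1 had 0 counts in all libraries.

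**Figure D5:**
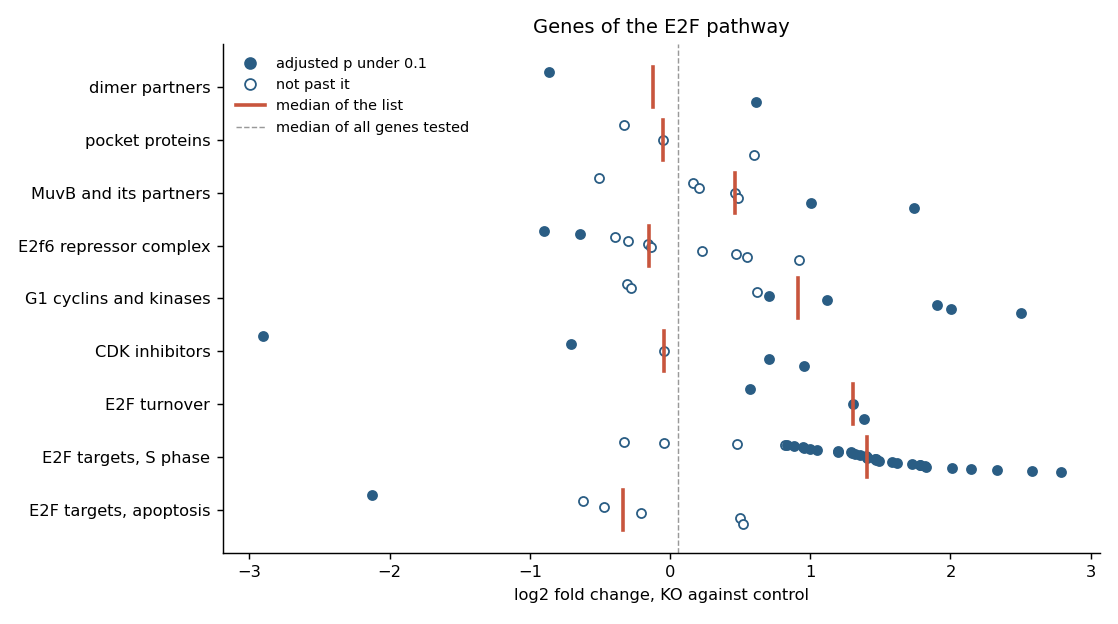
Log2 fold change (knockout against control, edgeR) of the genes in 9 lists of the E2F pathway; each point is a gene, filled where the adjusted p is under 0.1, red bars are list medians and the dashed line is the median of all genes tested. The S phase targets have a median of 1.40, and no apoptosis target is filled to the right of 0.

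For each member the genes with the most similar pattern were sought among 12027 genes, as the smallest root mean square (RMS) difference of centred log2(CPM + 1) over the 9 libraries. Nearest to E2f1 were Tubb6 (0.180) and Ldha (0.228), and nearest to E2f8 were Sema6b (0.152) and Tubb4b (0.163). E2f7 was most like Psmd1 (0.105) and Ccsap (0.108), and E2f6 most like Cpe (0.129) and Ptpn1 (0.162). For the members with small changes these were Cstf1 and Sh3gl1 for E2f2, Ankrd10 and Mier3 for E2f3, Snrnp40 and Rpl35a for E2f4, and Fam3c and Zfp317 for E2f5. The points share their libraries, and with only 9 of them many genes have a like pattern.

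MaTAR25 itself was mapped on chromatin by ChIRP-seq, a pulldown with tiled probes against the RNA, in 4T1 cells and in NDL mammary tumour cells. Peaks were called on pooled replicates against a pulldown of Ppib RNA, so no error can be given. In the 4T1 list of all probes, peaks lay inside 4 of the 8 members, with 5 in E2f3, 4 in E2f7, 2 in E2f6 and 1 in E2f1, while 49.6% of protein-coding genes held at least 1. The highest scored was in E2f7 at chr10:110778606-110779358, annotated as exonic, with a peak score of 368 and rank 1947 of 76806. Peaks overlapping it were present in the lists of even probes, odd probes and NDL cells. The E2f1 peak, at chr2:154561214-154562115 in an intron, had a score of 95.4 and rank 17028 and was also met in all 4 lists. No peak lay inside E2f2, E2f4 or E2f5 in any list, and inside E2f8 only in the NDL list. For E2f5 the even list says nothing, since it held 0 peaks on chromosome 3 where the odd list held 3835. E2f1, E2f7 and E2f8 rose in both clones, and of these E2f8 held no peak inside it in 4T1 cells. The 4T1 list of even probes held a peak outside E2f8, at chr7:48883952-48884451, with E2f8 as the nearest promoter. E2f3 held the most peaks and did not pass in either clone against control. Among the 4 members with peaks, the count followed gene span: 79489 bases for E2f3, 41946 for E2f7, 28780 for E2f6 and 10486 for E2f1. E2f2, E2f5 and E2f8, at 23664, 27669 and 15168 bases, held none. Whether peaks go with the changes in expression was not tested.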

How the data were processed

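RNA-seq libraries of control (n = 2), KO1 (n = 3) and KO2 (n = 4) cells were used. The deposited tables hold raw counts per gene, which the authors made by mapping reads to GRCm38 with STAR and counting with HTSeq on GENCODE vM5. The KO2 replicate 2 table lists each gene 3 times with the same value and was read once. Rows that name no gene held 33.9% to 37.0% of the counts and were left out. Genes were named, placed and given merged exon lengths from GENCODE vM21, for 44585 of 45318 identifiers. Low counts were removed with filterByExpr, libraries scaled by TMM, and groups compared with edgeR 4.0.16 (quasi-likelihood test, Benjamini-Hochberg, adjusted p under 0.1, as in the study). Knockout against control was fitted with both clones as 1 group, the clone comparisons with 3 groups. The SE is the log2 fold change divided by the root of F. CPM is TMM-scaled, and RPKM is CPM per kilobase. Exact two-sided permutation tests of log2(CPM + 1) used scipy 1.17.1. The fits were checked on simulated counts.

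The deposited ChIRP-seq peak lists carry a HOMER peak score that the authors computed on pooled replicates after mapping with Bowtie2. No other column of these lists was tested. Promoter sequences came from RefSeq.

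Members and lists were chosen with earlier results of these data known. All 8 members are described. Lists of up to 3 genes are named in full, and longer ones by the 3 called genes with the largest change and up to 2 uncalled genes with the highest mean of at least 1 CPM. The 2 genes most like each member are named. Some genes that this rule names are not reported here. Alternatives were RLE factors, DESeq2 1.42.0, no filter, a threshold of 0.05, a replicate block, other sample sets, and leaving out each library; leaving out libraries for the pathway lists was chosen after seeing the data.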

Additional observations from a re-analysis of the deposited data

Results flagged for a closer look

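E2f6 differed between the knockout clones: its log2 fold change in KO2 against KO1 was 1.31, with an adjusted p of 0.00310 in edgeR's test of that difference, and each clone lay on its own side of the controls. E2f3 differed between the clones by 0.48 on the log2 scale in the same test, with an adjusted p of 0.0780. In KO2, the one group of 4 libraries, no member had a library far enough from the others to pass Dixon's critical value for 4 libraries. The largest ratio was 0.787, for E2f7 in KO2 replicate 3.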

How the results depend on the processing

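The 3 members called over both clones were 3 under RLE factors, DESeq2, no filter, a threshold of 0.05 and a 3-group fit, and 2 to 3 when 1 library was left out. The S phase targets called numbered 30 to 33 under these settings and 16 to 32 when 1 library was left out, the lowest without control replicate 1. Members called numbered 3 to 5 in KO1 and 3 to 4 in KO2. Between the clones 1 member, E2f6, was called instead of 2 at the threshold of 0.05, with no filter and with only those groups fitted, and 1 to 2 when 1 library was left out; without KO1 replicate 3 these were E2f6 and E2f7.

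The activator minus repressor difference of knockout and control means, 0.154, ran from 0.113 to 0.207 over all settings.

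Replicate numbers do not pair the libraries: same-numbered deviations correlated at -0.196 to 0.0558. With the number as a block, 3 members were called over both clones, 3 in KO1, where E2f6 was lost, 4 in KO2 and 1 between the clones, 30 S phase targets were called, and 1952 genes were called in all against 3392.

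Of the members' refitted fold changes, 407 kept direction and side of the threshold, 20 lost the call, 2 gained it and 19 changed sign. Those that changed sign were not called under either setting. In KO2 against control E2f4 was at 0.00377 with RLE factors, 0.00375 in DESeq2, 0.102 with the replicate block and 0.00112 with only the groups compared, and over both clones at 0.0286 with the block. When 1 library was left out, E2f4 ran from -0.111 to 0.0551 over both clones, -0.217 to 0.00627 in KO1 and -0.114 to 0.0905 in KO2, and E2f2 from -0.0165 to 0.280 in KO2. Between the clones E2f1 then ran from -0.0726 to 0.217, E2f2 from -0.142 to 0.180, E2f4 from -0.0227 to 0.216 and E2f5 from -0.178 to 0.197. The causes were not tested. The total called fell by over 1.5 times from 3392 when either control was left out. In those fits 1 control stands for the group and is taken to vary like the others. Over all genes the totals also moved by over 1.5 times at the threshold of 0.05 over both clones (2235) and between the clones (2944 to 1643), in KO1 (4750) with only the groups compared (7752) and without a control (1482 and 1764), in KO2 (4724) without a control (1366 and 1456), and between the clones with the block (1736), with only the groups compared (1932) and without KO1 replicate 1, 2 or 3 (1424, 874 and 1704).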
